A study of Mus musculus with 6 samples.

Results

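The genes described here are 9 chemokine genes of the mouse that lie outside the Ccl3-Ccl4 cluster of chromosome 11: Xcl1, Cxcl2, Cxcl9, Cxcl10, Cxcl11, Cxcl16, Ccl17, Ccl22 and Ccl25. They were taken by symbol from the 55401 genes of the count tables, and 7 of the 9 had enough reads for a test. The libraries came from spleen CD4+ T cells, enriched as naive cells with magnetic beads and stimulated through CD3 and CD28 for 24 h. The 3 control libraries carry the genotype label WT. The 3 conditional knockout (cKO) libraries came from mice with loxP-flanked Satb1 alleles (Satb1 flox/flox) and a CD4-Cre transgene, which acts during thymic development and therefore reaches cells of both the CD4 and the CD8 lineage. SATB1 organises chromatin in thymocytes and T cells through its binding to AT-rich DNA. The labels do not say whether the controls carried Cre or loxP alleles, or whether each library came from a separate mouse, so p-values measure the spread between these libraries, which may be technical. Animal age is not given in the labels.

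Chemokines are small secreted proteins that bind seven-transmembrane receptors and set the direction in which leukocytes move. XCL1 is released by activated lymphocytes and attracts the dendritic cells that carry XCR1. CXCL9, CXCL10 and CXCL11 are induced by interferons and share the receptor CXCR3 of effector T cells, whereas CXCL16 is made as a membrane protein, is shed by proteases and binds CXCR6. CCL17 and CCL22 are the ligands of CCR4, CCL25 is the ligand of CCR9 and guides T cells to thymus and small intestine, and CXCL2 attracts neutrophils through CXCR2.

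Read totals assigned to genes ran from 14895389 to 20266626 per library, and levels are given as CPM, reads of a gene scaled to a common normalised library size. Satb1 reads were still present in the cKO libraries, at 426, 546 and 462 CPM, beside 712, 851 and 727 CPM in the controls. Satb1 fell by 0.68 ± 0.0866 (SE) on the log2 scale (edgeR quasi-likelihood test, Benjamini-Hochberg adjusted p = 9.7e-05). Gene-level counts do not show whether the remaining reads include the exons between the loxP sites. T cell markers summed to between 2990 and 3100 CPM in the controls and to between 2340 and 2420 CPM in cKO, and of 10 tested 7 fell and 1 rose (median log2 fold change -0.23). Among those that fell, Cd4 went from 701 to 209 CPM on average, while Cd8a, a CD8 T cell marker, rose from 0.792 to 6.28 CPM. Red cell markers summed to between 24.9 and 31.4 CPM in the controls and to 310, 1860 and 1610 CPM in cKO replicates 1, 2 and 3. In such bulk libraries, a change in the share of cells that make a transcript and a change in the amount per cell cannot be told apart.

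The DNA just upstream of the gene starts is shown first for Xcl1, Cxcl9 and Cxcl10, whose transcripts rose most among the 9 genes, and for Cxcl2, which was not called changed. The windows are from RefSeq on GRCm38.p6, which held a promoter for 7 of the 9 genes (Cxcl11 and Cxcl16 had no entry). Each printed sequence ends at the base before the GENCODE gene start. This left 245 bases for Xcl1, 222 for Cxcl2 and 250 each for Cxcl9 and Cxcl10. Capitals mark matches on either strand to the motifs spelled out after the sequences, and each sequence runs 5′ to 3′ on the strand of its gene.
Xcl1, chr1:164935528-164935772, minus strand: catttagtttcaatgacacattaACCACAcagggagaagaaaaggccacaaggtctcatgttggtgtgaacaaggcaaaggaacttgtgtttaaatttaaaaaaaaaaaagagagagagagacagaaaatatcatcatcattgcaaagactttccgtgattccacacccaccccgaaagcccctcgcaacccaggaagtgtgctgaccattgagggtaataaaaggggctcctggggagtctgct
Cxcl9, chr5:92328080-92328329, minus strand: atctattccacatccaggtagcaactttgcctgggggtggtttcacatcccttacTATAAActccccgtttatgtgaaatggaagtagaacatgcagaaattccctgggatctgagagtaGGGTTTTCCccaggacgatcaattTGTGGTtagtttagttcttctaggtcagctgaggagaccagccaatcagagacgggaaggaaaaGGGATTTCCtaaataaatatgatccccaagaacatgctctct
Cxcl10, chr5:92348890-92349139, minus strand: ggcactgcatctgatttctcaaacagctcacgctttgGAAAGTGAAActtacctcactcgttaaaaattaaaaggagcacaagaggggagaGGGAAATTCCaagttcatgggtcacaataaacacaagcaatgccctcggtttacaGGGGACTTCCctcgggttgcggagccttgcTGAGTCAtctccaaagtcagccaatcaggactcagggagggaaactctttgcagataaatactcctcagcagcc
Cxcl2, chr5:90903649-90903870, plus strand: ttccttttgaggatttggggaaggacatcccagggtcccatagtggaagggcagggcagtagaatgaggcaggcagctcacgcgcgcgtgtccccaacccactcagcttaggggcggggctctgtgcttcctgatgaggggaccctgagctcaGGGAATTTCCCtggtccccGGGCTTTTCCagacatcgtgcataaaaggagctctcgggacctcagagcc

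Positions are counted from the RefSeq transcript start, which lies downstream of the end of the printed sequence for Xcl1 and Cxcl2. Of all 32851 windows of 250 bases, 2.98% held an interferon-stimulated response element (GAAA, any 2 bases, GAAA). The Cxcl10 window held that element at -213 to -204. It also held NF-kB motifs of the form GGG, any 3 bases, TTCC at -159 to -150 and at -104 to -95 (4.65% of windows), and an AP-1 motif, TGANTCA, at -74 to -68 (6.75% of windows). The second of those NF-kB matches contains a match to the shorter form GGGNNTTCC. Cxcl9 had that shorter form at -130 to -122 and at -42 to -34 (4.98% of windows), a RUNX motif, TGTGGT, at -106 to -101 (14% of windows) and TATAAA at -195 to -190 (12.4% of windows). Cxcl2 had the longer NF-kB form at -97 to -88, where a match on the other strand overlaps it, and again at -78 to -69. In Xcl1 the single match was a RUNX motif on the reverse strand at -227 to -222. The interferon-gamma-activated site TTCNNNGAA (7.02% of windows) and the STAT6 spacing (TTC, any 4 bases, GAA, 5.85% of windows) matched none of these 4 windows and each matched once in Ccl17. AT content was 56% for Xcl1, 55.6% for Cxcl9, 52% for Cxcl10 and 40% for Cxcl2, where the median of all windows was 47.6%. In the windows not printed it was 52.4% for Ccl17, 46.4% for Ccl22, and 25.2% and 48.4% for the 2 of Ccl25. A link between AT content and the changes was not tested. These shares cover the full 250 bases of each window, including bases of Xcl1 and Cxcl2 that are not printed. A match describes letters in a window and is not evidence of binding.

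Xcl1, Cxcl9, Cxcl10 and Cxcl16 rose in the cKO libraries, Ccl25 fell, Ccl22 and Cxcl2 did not pass the test, and Ccl17 and Cxcl11 had too few reads to be tested. Of the 7 tested, 4 were therefore called higher and 1 lower, and their median log2 fold change was 1.57. Over all 13364 tested genes, 42.3% were called in either direction, 21.6% higher and 20.7% lower, with a median log2 fold change of 0.003. These shares are the background for every count of called genes in a list given here, and no such count was tested against them. Xcl1 and Cxcl9 passed the filter on low counts only through the cKO libraries, so the count over the tested genes says nothing about the 9 as a set. The 3 cKO libraries lay above the 3 controls for Xcl1, Cxcl9, Cxcl10 and Cxcl16 and below them for Ccl25. Such non-overlap in either direction occurred in 53.4% of all tested genes (27% above, 26.5% below). For Xcl1 and Cxcl9 the non-overlap was set by the filter, so it cannot be read against that share.

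**Figure D1:**
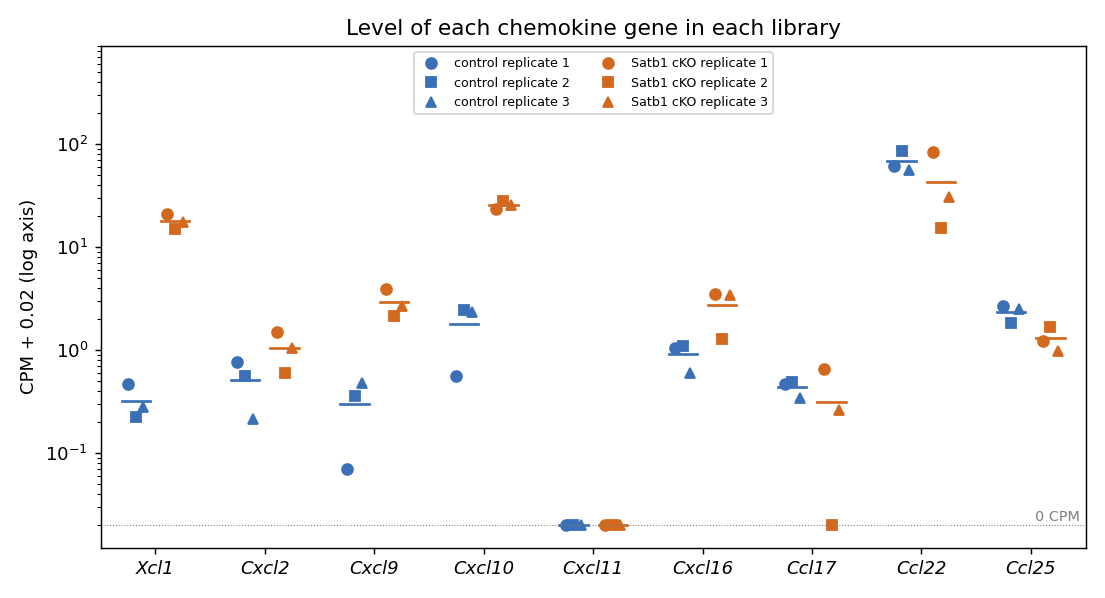
Levels of the chemokine genes in each library, in CPM, with control and cKO libraries as separate points. Xcl1, Cxcl9, Cxcl10 and Cxcl16 are higher in all 3 cKO libraries than in all 3 controls, while Ccl22 spreads from 15.3 to 83.9 CPM within the cKO group.

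Xcl1 (ENSMUSG00000026573.7, chr1:164931644-164935527, minus strand, GRCm38) went from near absence to the highest level per base of the 9 genes. Its reads numbered 9, 3 and 4 in control replicates 1, 2 and 3 and 397, 261 and 292 in the cKO replicates. In CPM these were 0.443, 0.201 and 0.259 against 20.9, 14.9 and 17.6, so the groups were far apart and each was narrow beside the gap between them. The mean rose from 0.301 ± 0.126 to 17.8 ± 2.96 CPM (SD, n = 3 each), a log2 fold change of 5.79 ± 0.245 (SE; edgeR adjusted p = 2.29e-08), or 55.3-fold. A part of the Xcl1 exons, 98 of 523 bases (18.7%), overlaps Gm20743 on the opposite strand. Gm20743 rose as well, from 0.394, 0.134 and 0.259 to 7.77, 4.41 and 5.85 CPM (log2 fold change 4.42 ± 0.355 SE, edgeR adjusted p = 2.97e-06). Like Xcl1, Gm20743 passed the filter on low counts only through the cKO libraries, so the direction of both was set by the filter. Reads of the pair in the shared stretch cannot be told apart unless counting used strand, and the setting is not given in the sources used here.

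Genes often made together with Xcl1 by activated lymphocytes moved mostly upward: of 18 listed, 17 were tested, 14 rose, 1 fell and the median log2 fold change was 1.22. Nkg7, a cytotoxic granule protein, rose from 2.71, 2.75 and 2.79 to 26.5, 22.4 and 26.7 CPM (3.20 ± 0.119 SE on the log2 scale, edgeR adjusted p = 1.14e-08). Crtam, an adhesion receptor of activated cytotoxic cells, rose (2.96 ± 0.199 SE, log2 fold change), and Prf1, which encodes perforin, did too (2.04 ± 0.157 SE). Runx3, a transcription factor of cytotoxic T cells, rose by 0.98 ± 0.0498 (SE). Nfatc2, a calcium-regulated transcription factor, was the gene that fell, by 0.42 ± 0.0507 (SE). Fasl and Gzma did not pass the test, and Csf2 had too few reads.

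Markers of other cells that make Xcl1 moved unevenly. Natural killer markers summed to between 7.78 and 10.3 CPM in the controls and to between 15 and 19.7 CPM in cKO, and 2 of the 3 tested of 7 rose (Klrk1 and Eomes). The other 4 genes were too sparse to test, with 20 control and 17 cKO reads for Ncr1, 14 and 20 for Klrb1c, 8 and 31 for Klra8, and 2 and 27 for Klre1. Markers of gamma-delta T and NKT cells summed to between 6.94 and 11 CPM in the controls and to between 19.8 and 25.4 CPM in cKO, and 4 of the 5 tested of 6 rose. CD8 markers, of which Cd8a rose and Cd8b1 did not pass the test, summed to between 17.6 and 21.4 and between 22.5 and 29.6 CPM. No gene of these lists was at 0 in all libraries, and their part in the Xcl1 difference was not tested.

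The CXCR3 ligands lie side by side on chromosome 5, with 18.6 kb between Cxcl9 and Cxcl10 and 10.7 kb between Cxcl10 and Cxcl11. Cxcl10 (ENSMUSG00000034855.13, chr5:92346638-92348889, minus strand) had 11, 36 and 36 control reads and 442, 484 and 428 cKO reads. Its level was 0.542, 2.42 and 2.33 CPM in the controls and 23.2, 27.7 and 25.8 CPM in cKO. Control replicate 1 was low, and the cKO libraries agreed closely with each other. Cxcl10 rose from 1.76 ± 1.06 to 25.6 ± 2.25 CPM (SD, n = 3 each), a log2 fold change of 3.94 ± 0.276 (SE; edgeR adjusted p = 1.04e-06). Without control replicate 1 the log2 fold change was 3.41 (edgeR adjusted p = 5.11e-10).

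Cxcl9 (ENSMUSG00000029417.9, chr5:92321347-92328079, minus strand) was rarer, with 1, 5 and 7 control reads and 74, 37 and 44 cKO reads. These were 0.0492, 0.336 and 0.454 CPM against 3.89, 2.12 and 2.66 CPM. Again control replicate 1 was the lowest control, and among cKO libraries replicate 1 was the highest. The log2 fold change was 3.44 ± 0.475 (SE; edgeR adjusted p = 0.000165), or 2.84 without control replicate 1 (edgeR adjusted p = 0.000101). Cxcl9 passed the filter on low counts only through the cKO libraries, so its direction was set by the filter. Cxcl11 (ENSMUSG00000060183.6, chr5:92359544-92365485, minus strand), annotated by GENCODE as a polymorphic pseudogene, had 0 reads in all 6 libraries. A count of 0 allows up to 3 reads, or 0.148 to 0.201 CPM depending on the library, as counting error only.

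Ifng, the gene of the main inducer of these ligands, rose from 0.295, 0.739 and 1.88 CPM to 10.8, 6.47 and 14.0 CPM (log2 fold change 3.49 ± 0.436 SE, edgeR adjusted p = 8.12e-05). The list of the interferon-gamma axis as a whole was mixed: 6 of 17 tested genes rose, 2 fell and 9 did not pass, with a median log2 fold change of 0.26. Over all tested genes 42.3% were called in either direction, a share close to that of this list. Irf8, a transcription factor induced by interferon-gamma, rose from 64.7, 137 and 129 to 829, 727 and 882 CPM (2.89 ± 0.214 SE on the log2 scale). Ifngr1, a chain of the receptor, rose (1.48 ± 0.115 SE, log2 fold change), and Socs1, a feedback inhibitor of JAK kinases, did too (1.15 ± 0.129 SE). The other receptor chain, Ifngr2, fell by 0.32 ± 0.0769 (SE) and Jak1, the kinase bound to IFNGR1, fell by 0.26 ± 0.0332 (SE).

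Other classical interferon-gamma targets of the list were divided. Gbp3, an interferon-induced GTPase, rose from 19.6, 40.4 and 42.3 to 61.8, 61 and 56.6 CPM (log2 fold change 0.83 ± 0.204 SE, edgeR adjusted p = 0.00679), but was not called by DESeq2 (adjusted p = 0.0613). Psmb8, an immunoproteasome subunit, rose by a smaller amount (0.43 ± 0.157 SE, edgeR adjusted p = 0.0474). That call was lost without control replicate 1, control replicate 3, cKO replicate 1 or cKO replicate 3 (edgeR adjusted p from 0.0552 to 0.209) and with DESeq2 (0.224). The Psmb8 call was also lost with RLE size factors (edgeR adjusted p = 0.0501), a mean of at least 1 CPM (0.0541) and a replicate block (0.103). Tap1, a peptide transporter subunit, read 269, 433 and 433 against 445, 448 and 466 CPM, without overlap, and was not called (edgeR adjusted p = 0.152). Gbp2, a relative of Gbp3, read 155, 510 and 499 CPM in the controls and 448, 470 and 445 CPM in cKO, with the cKO libraries inside the control range. Irf1 read 130, 223 and 224 against 216, 191 and 189 CPM, so its groups overlapped too. Control replicate 1 was the lowest library for all 5 genes, as it was for Cxcl9 and Cxcl10, and neither Gbp2 nor Irf1 passed the test. Without that library the axis had 5 genes called higher and 6 called lower, and Irf1 (log2 fold change -0.18) and Gbp2 (-0.16) were among those called lower. Among 17 tested type I interferon-stimulated genes 4 rose, 2 fell and the median was -0.04, and without control replicate 1 the counts were 4 and 7. The share called in either direction over all tested genes was 42.3%. Of the 4 that rose, Mx1 reached the level of the low-count filter in no control library, so its direction was set by the filter. Rsad2 rose (log2 fold change 3.01 ± 0.54 SE), whereas Ifit2 fell by 1.09 ± 0.109 (SE) and Oas2 fell by 2.11 ± 0.399 (SE).

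**Figure D2:**
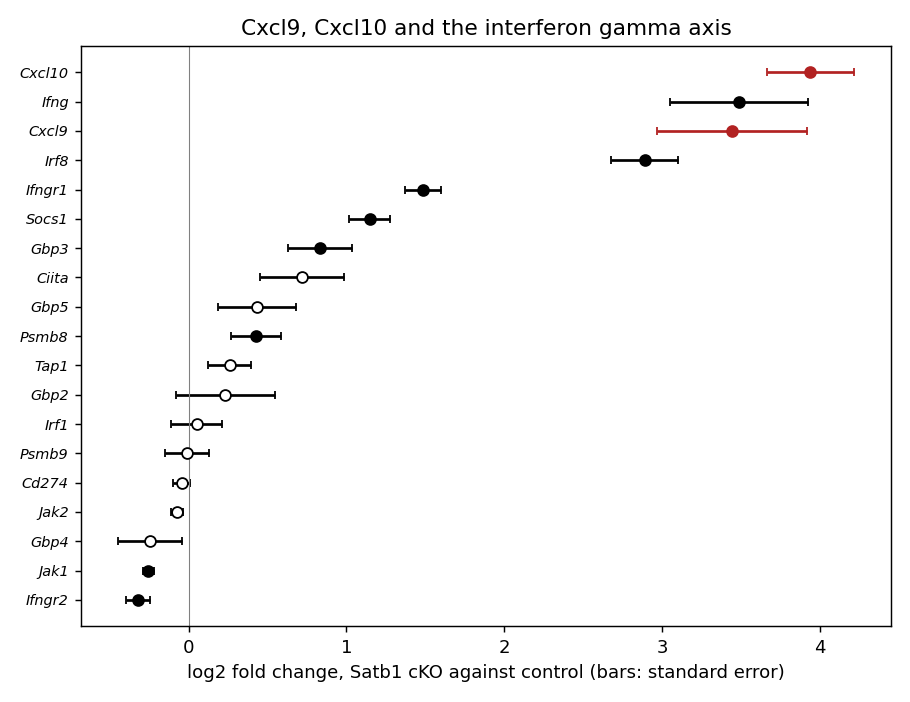
Log2 fold changes, cKO over control, of Cxcl9, Cxcl10 and genes of the interferon-gamma axis, with standard errors, filled where the test was passed. Cxcl10 (3.94), Ifng (3.49), Cxcl9 (3.44) and Irf8 (2.89) lie far to the right, while Gbp2, Irf1 and Tap1 lie near 0.

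The NF-kB list, whose motifs occur in the Cxcl2, Cxcl9 and Cxcl10 windows printed above, had 15 tested genes, of which 10 rose and none fell in the fit of all 6 libraries. Its median log2 fold change was 0.24, and the changes were small: Nfkb2 rose by 0.75 ± 0.0449 (SE), Nfkbib by 0.74 ± 0.0441 (SE), Traf1 by 0.70 ± 0.057 (SE) and Nfkb1 by 0.62 ± 0.0608 (SE). Nfkb1 and Nfkb2 encode subunits of the factor, and Nfkbib encodes an inhibitor of it. Without control replicate 1 a single gene of the list was called lower. Cxcl2, whose window held these motifs, was not called, and a link between the list and the member changes was not tested.

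Cxcl16 (ENSMUSG00000018920.11, chr11:70453983-70459984, minus strand) lies on chromosome 11 but apart from the chemokine cluster. It had 21, 16 and 9 control reads and 66, 22 and 56 cKO reads. The controls read 1.03, 1.07 and 0.583 CPM and the cKO libraries 3.47, 1.26 and 3.38 CPM, so cKO replicate 2 sat just above the highest control. The gene rose 2.98-fold (log2 fold change 1.57 ± 0.399 SE, edgeR adjusted p = 0.00812). It shares 552 of 3021 exon bases (18.3%) with Zmynd15 on the opposite strand. Zmynd15 read 0.295, 0.604 and 0 CPM in the controls and 1.26, 0.343 and 1.15 CPM in cKO (log2 fold change 1.61 ± 0.691 SE, edgeR adjusted p = 0.0834).

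The genes chosen as nearest to Cxcl16 in profile over the 6 libraries, and therefore low in cKO replicate 2 like Cxcl16, were Sirpa (root mean square distance 0.101 log2 units), Ptafr (0.123) and Il1rn (0.201). Sirpa, an inhibitory receptor of myeloid cells, read 2.56, 2.95 and 1.94 CPM in the controls and 9.56, 3.55 and 8.87 CPM in cKO. Monocyte and macrophage markers summed to between 27.4 and 37.7 CPM in the controls and to 161, 81 and 210 CPM in cKO replicates 1, 2 and 3. Of 17 such markers 9 were tested and all 9 rose, with a median log2 fold change of 2.02, but 2 of them, Adgre1 and Itgam, reached the level of the low-count filter in no control library, so their direction was set by the filter. Among the cKO libraries, 8 of the 9 were lowest in replicate 2. Itgam was nearly level there, at 0.893, 0.801 and 0.785 CPM, and the untested complement genes C1qa, C1qb and C1qc were highest in replicate 2. Without cKO replicate 3 the count was 6 for the same list. Lyz2, the lysozyme of myeloid cells, read 9.89, 10.3 and 7.52 against 62.3, 41.1 and 93.0 CPM, and Adgre1, the macrophage antigen F4/80, read 0.295, 0.201 and 0.454 against 3.15, 0.858 and 3.56 CPM. Fcgr1, another defining macrophage gene, had 4 reads in each group, and none of the 17 markers was at 0 in all libraries. Cxcl10 was highest in cKO replicate 2, where the sum of these markers was lowest among the cKO libraries, and Cxcl9 was lowest there. The part of myeloid cells in the Cxcl16, Cxcl9 and Cxcl10 differences was not tested.

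Cxcl2 (ENSMUSG00000058427.10, chr5:90903871-90905938, plus strand) lies 1.42 Mb from Cxcl9 on the same chromosome. Its 15, 8 and 3 control reads and 28, 10 and 17 cKO reads gave 0.738, 0.537 and 0.194 CPM and 1.47, 0.572 and 1.03 CPM. The groups overlapped, and the gene was not called (log2 fold change 1.01 ± 0.476 SE, edgeR adjusted p = 0.111).

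Ccl22 (ENSMUSG00000031779.3, chr8:94745590-94751699, plus strand) was the most abundant of the 9 genes in the controls, with 1257, 1277 and 871 reads. Its levels were 61.9, 85.7 and 56.5 CPM in the controls and 83.9, 15.3 and 30.6 CPM in cKO. The first cKO library lay within the control range and the other two lay below every control. The means of 68.0 ± 15.6 and 43.3 ± 36.0 CPM (SD, n = 3 each) gave a log2 fold change of -0.64 ± 0.423 (SE) with an edgeR adjusted p of 0.254, which was not a call. Without cKO replicate 1 the log2 fold change was -1.57 and the gene was called lower (edgeR adjusted p = 0.000923).

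The spread of Ccl22 within the cKO group was rare among tested genes above a minimum level, a set with no upper limit on level. Its highest cKO level was 5.49 times its lowest, beside 1.52 times among the controls and a median of 1.08 times over the 8457 tested genes with a mean of at least 10 CPM. Of those genes, 6 had a cKO ratio as high, Ccl22 included, and the others were Alas2, Gpnmb, Tmcc2, Hbb-bs and Hbb-bt. The globins and Alas2 are red cell genes, and Ccl22 was the single gene of the 6 with its highest level in cKO replicate 1. The genes nearest to Ccl22 in profile were Myo18b (0.203 log2 units), Synpo2 (0.281) and Muc6 (0.299), a choice made after the values of Ccl22 were seen.

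**Figure D3:**
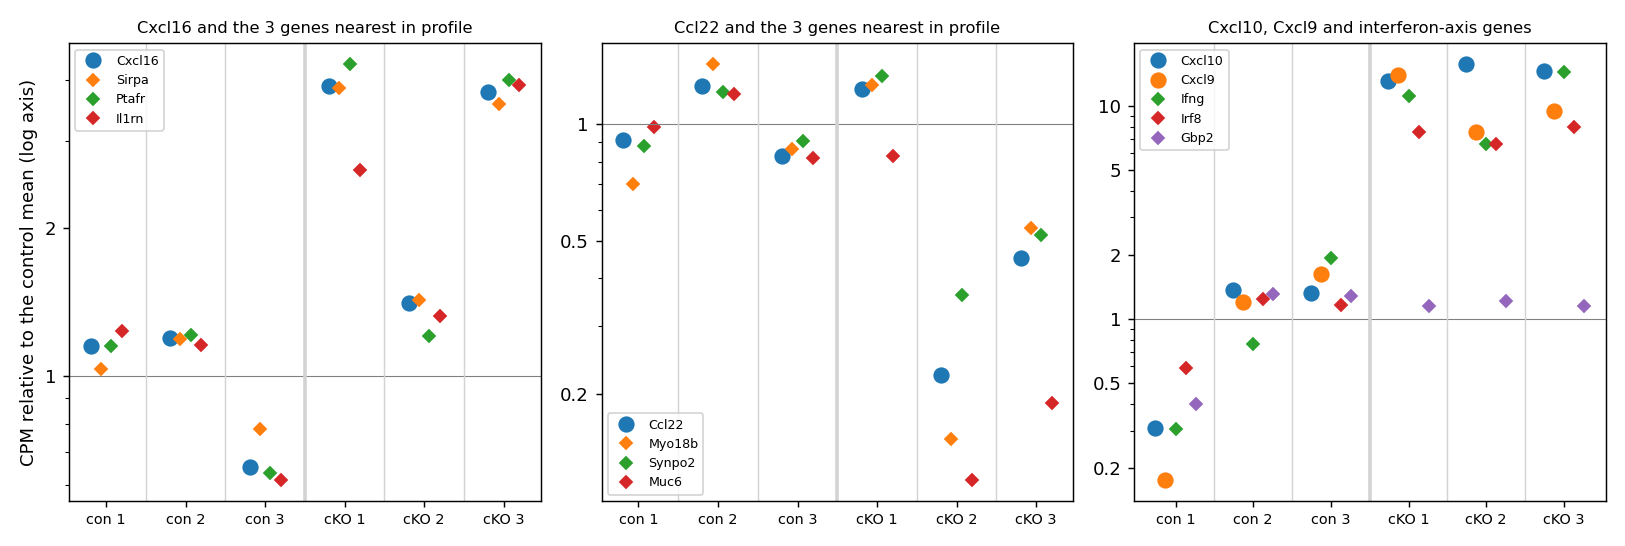
Levels per library relative to the control mean (log axis) for Cxcl16, Ccl22 and the CXCR3 ligands, each with the genes named in its panel. The Cxcl16 group is low in cKO replicate 2, the Ccl22 group is low in cKO replicates 2 and 3, and Cxcl9, Cxcl10, Ifng and Gbp2 are low in control replicate 1.

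Ccl17 (ENSMUSG00000031780.2, chr8:94810453-94812036, plus strand) begins 58.8 kb beyond Ccl22 and encodes the other CCR4 ligand. It had 9, 7 and 5 control reads and 12, 0 and 4 cKO reads, or 0.443, 0.470 and 0.324 CPM against 0.63, 0 and 0.241 CPM. As for Ccl22, cKO replicate 1 was the highest of the cKO libraries and replicate 2 the lowest, but at these counts no difference was detectable. With no filter on low counts the log2 fold change was -0.48 (edgeR adjusted p = 0.627).

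Ccl17 and Ccl22 are best known from dendritic cells. Markers of those cells summed to between 1020 and 1160 CPM in the controls and to between 1860 and 2050 CPM in cKO, and 4 of the 7 tested of 13 rose. Most of that sum was Ccr7 and Irf8, which activated T cells also express. Zbtb46, a transcription factor of the dendritic lineage, rose from 2.66, 2.55 and 2.85 to 13.1, 14.8 and 13.5 CPM (log2 fold change 2.36 ± 0.129 SE, edgeR adjusted p = 1.65e-07). Cd83, a surface protein of mature dendritic cells and activated lymphocytes, rose from 28.7, 21.2 and 26.8 to 124, 138 and 130 CPM (2.35 ± 0.0879 SE). Both were highest in cKO replicate 2, where Ccl22 was lowest. The remaining defining genes were sparse: Clec9a had 2 control and 3 cKO reads, Cd209a 1 and 2, Xcr1 13 and 14, and Itgax 10 and 55. Fscn1, an actin-bundling protein of mature dendritic cells, read 30.7, 40.8 and 35.9 against 33.6, 19 and 27.1 CPM (log2 fold change -0.42 ± 0.167 SE, edgeR adjusted p = 0.063). As for Ccl22, its cKO replicate 1 was the highest of the cKO libraries and replicate 2 the lowest. The part of dendritic cells in these values was not tested. Of 7 tested genes of the IL-4, STAT6 and Th2 axis, which drives CCL17 and CCL22 in many cells, 2 rose, none fell and the median log2 fold change was 0.00. Those 2 were Maf, which read 1.43, 2.08 and 2.07 against 10.8, 10.8 and 11.5 CPM (2.59 ± 0.165 SE), and Nfil3 (1.65 ± 0.186 SE), both transcription factors.

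Ccl25 (ENSMUSG00000023235.14, chr8:4325210-4360020, plus strand) was the member that fell. It had 54, 27 and 38 control reads and 23, 29 and 16 cKO reads, or 2.66, 1.81 and 2.46 CPM against 1.21, 1.66 and 0.966 CPM. The groups did not overlap, although control replicate 2 and cKO replicate 2 were close. The gene fell by 0.86 ± 0.273 (SE) on the log2 scale (edgeR adjusted p = 0.0252). Without control replicate 1 (edgeR adjusted p = 0.0814), control replicate 3 (0.0749), cKO replicate 1 (0.0677) or cKO replicate 3 (0.0881), and with DESeq2 on all 6 libraries (0.0893), it was no longer called. Ccl25 overlaps Elavl1 on the opposite strand over 204 of 7445 exon bases (2.74%).

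Per kilobase of exon, the 9 genes changed order between the groups. In the controls Ccl22 led with 29.3 ± 6.70 CPM per kb (SD, n = 3), and no other member averaged above the 0.802 CPM per kb of Ccl17. Cxcl10 at 0.783 ± 0.470 and Xcl1 at 0.576 ± 0.241 CPM per kb did not differ from Ccl17 beyond their spread. In cKO Xcl1 led with 34.0 ± 5.66 CPM per kb, followed by Ccl22 at 18.6 ± 15.5 and Cxcl10 at 11.4 ± 0.999. The spread of Ccl22 between libraries reached the means of both Xcl1 and Cxcl10. Within each cKO library, Xcl1 was above Ccl22 per kilobase. Cxcl9 at 0.957, Cxcl16 at 0.894, Ccl17 at 0.565 and Cxcl2 at 0.495 CPM per kb came next, and Ccl25 was last of the detected genes at 0.172.

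The summed CPM of the 9 genes was 67.8, 92.6 and 63.1 in the controls and 139, 63.5 and 82.3 in cKO, so the sums of the groups overlapped. Shares of a sum depend on each other, so the share of Ccl22, whose own levels overlapped between groups, also moved with Xcl1 and Cxcl10. Ccl22 gave 91.3%, 92.6% and 89.5% of that sum in the controls and 60.5%, 24.1% and 37.2% in cKO. Xcl1 gave 0.654%, 0.218% and 0.411% in the controls and 15%, 23.5% and 21.4% in cKO, and Cxcl10 went from 0.799%, 2.61% and 3.7% to 16.7%, 43.6% and 31.4%.

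The receptors of these ligands were measured in the same libraries. Of 7 receptor genes 5 were tested. Among these 4 rose and 1, Cxcr1, fell, and their median was 1.33 on the log2 scale. Cxcr3, the receptor of CXCL9 and CXCL10, read 0.64, 1.54 and 1.1 CPM in the controls and 6.72, 8.13 and 8.75 CPM in cKO (2.88 ± 0.252 SE on the log2 scale, edgeR adjusted p = 5.56e-06). Cxcr6, the receptor of CXCL16, read 3.25, 3.02 and 2.85 against 8.61, 7.1 and 7.24 CPM (1.33 ± 0.153 SE, edgeR adjusted p = 4.56e-05). For both receptors the ligand and the receptor rose in the same libraries, with no overlap between groups.

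For CCR4 and CCR9 the receptor rose while no ligand did. Ccr4 read 27.9, 35.5 and 25.9 CPM in the controls and 74.9, 82.2 and 62.8 CPM in cKO (log2 fold change 1.31 ± 0.116 SE, edgeR adjusted p = 6.4e-06). Ccr9, the receptor of CCL25, read 0.886, 0.739 and 0.389 against 5.41, 4.18 and 4.95 CPM (2.81 ± 0.269 SE, edgeR adjusted p = 1.1e-05). Xcr1, the receptor of XCL1, had 13 control and 14 cKO reads and Cxcr2, the receptor of CXCL2, had 4 and 18, so neither was tested. Cxcr1, a related neutrophil receptor gene, fell by 2.87 ± 0.625 (SE; edgeR adjusted p = 0.00337) on 37 control and 5 cKO reads. Cxcr1 reached the level of the low-count filter in no cKO library, so its direction was set by the filter.

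**Figure D4:**
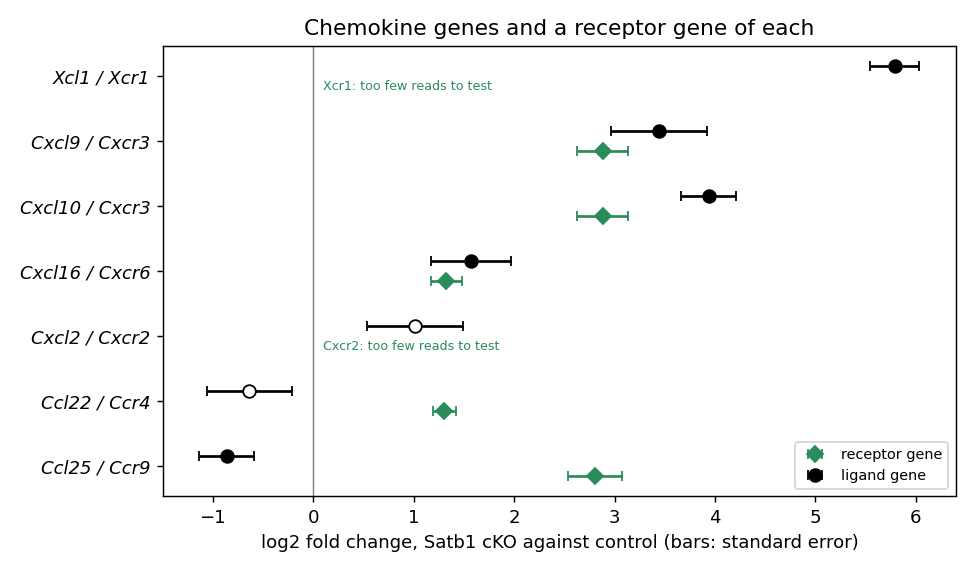
Log2 fold changes, cKO over control, of the ligands and of their receptors, with standard errors, filled where the test was passed. Cxcr3 (2.88), Ccr9 (2.81), Cxcr6 (1.33) and Ccr4 (1.31) are to the right of 0, with ligands to the right for Cxcr3 and Cxcr6 and to the left for Ccr4 and Ccr9.

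Few of the genes that remove or trim chemokines had enough reads for a test. Dpp4, the protease CD26 that trims CXCL9, CXCL10 and CXCL11 and inactivates them for CXCR3, read 36.9, 42.3 and 44.6 CPM in the controls and 75, 83.4 and 82.6 CPM in cKO (log2 fold change 0.97 ± 0.0726 SE, edgeR adjusted p = 1.81e-06). Adam10, which sheds CXCL16 from the cell surface, fell by 0.29 ± 0.0566 (SE; edgeR adjusted p = 0.00177). Adam17, a related sheddase, was called higher by a log2 fold change of 0.16, but not without control replicate 2, control replicate 3, cKO replicate 1 or cKO replicate 3, where edgeR adjusted p ran from 0.0565 to 0.111. Adam17 was not called by DESeq2 either (adjusted p = 0.0541). The other 5 of the 8 listed genes, among them the scavenger receptors Ackr1 to Ackr4, had too few reads for a test.

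Chemokine genes outside both groups were rare. Of 18 others outside the cluster, 4 were tested and 1 rose, with a median log2 fold change of 0.44. Ppbp, a platelet chemokine, rose from 14 to 64 reads in all (2.10 ± 0.629 SE on the log2 scale, edgeR adjusted p = 0.0192). Without control replicate 1, control replicate 3, cKO replicate 2 or cKO replicate 3 its log2 fold change ran from 1.68 to 2.00 with an edgeR adjusted p from 0.0514 to 0.0876. Without control replicate 2 the log2 fold change of Ppbp was 3.06 (edgeR adjusted p = 0.00991). Platelet markers, Ppbp among them, summed to between 3.59 and 5.51 CPM in the controls and to between 6.09 and 11.3 CPM in cKO, and their part was not tested. Cxcl3 (0.38), Ccl28 (0.50) and Ccl27a (-0.22) did not pass. Among genes too rare to test, Ccl21a had 4 control and 45 cKO reads, Pf4 had 8 and 36, Cxcl12 had 0 and 26, and Ccl20 had 11 and 4. Cxcl14, Cxcl15 and Ccl26 had no read in any library.

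Genes beside the members moved in both directions. The 3 nearest tested protein-coding genes on each side of every tested member came to 36 genes once the members among them were left out. In this set 11 rose, 8 fell and the median log2 fold change was 0.08. Over all tested genes 21.6% were called higher and 20.7% lower, and the neighbour counts were not tested against these shares. Around Xcl1, Atp1b1, a sodium pump subunit 473 kb away, fell by 2.49 ± 0.0892 (SE; edgeR adjusted p = 8.37e-09) and Sft2d2, 239 kb away on the other side, fell by 0.54. Around the CXCR3 ligands, Sdad1, 10.9 kb from Cxcl9, rose by a log2 fold change of 0.19 (edgeR adjusted p = 0.00781), and Nup54, 66.7 kb from Cxcl10, did not pass the test at 0.06. Naaa, a lysosomal amidase on the Cxcl9 side, fell by 1.07 ± 0.221 (SE; edgeR adjusted p = 0.00238). Around Cxcl16, Tm4sf5 (log2 fold change 1.28 ± 0.249 SE) and Psmb6, a proteasome subunit (0.38), rose. The 6 neighbours of Ccl22 lay between -0.23 and 0.29.

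**Figure D5:**
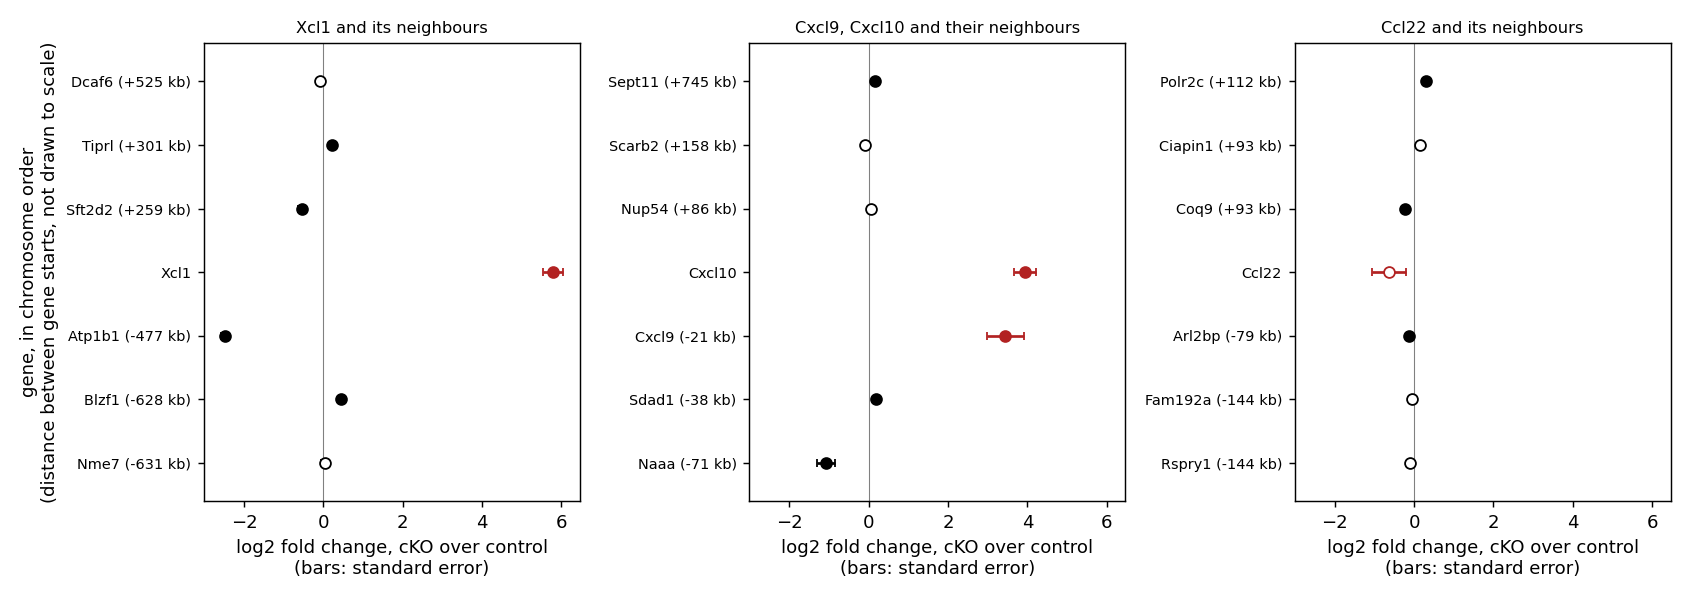
Log2 fold changes, cKO over control, of Xcl1, Cxcl9 with Cxcl10, and Ccl22 (red) and of their nearest tested protein-coding genes (black), with standard errors, filled where the test was passed. Genes are in chromosome order, and Xcl1 (5.79), Cxcl10 (3.94) and Cxcl9 (3.44) stand to the right of every neighbour shown.

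By the same distance over the 6 libraries, the genes nearest in profile to the remaining called members were as follows. Tigit (0.672), Endou (0.744) and Sostdc1 (0.753) were nearest to Xcl1, at distances larger than for the other members. Serpina3f (0.256), Ly6c2 (0.27) and Irf8 (0.316) were nearest to Cxcl9. Prtn3 (0.336), Thbs1 (0.37) and S100a9 (0.438) were nearest to Cxcl10, and Prtn3 and S100a9 are genes of the neutrophil lineage. Neutrophil markers summed to between 1.38 and 5.38 CPM in the controls and to between 27.2 and 40.7 CPM in cKO, and all 7 tested of 10 rose, while Ly6g had 0 and 2 reads. Of those 7, Camp, Csf3r and Elane reached the level of the low-count filter in no control library, so their direction was set by the filter. Their part in the Cxcl10 difference was not tested. Mmp15 (0.0709), 4931428F04Rik (0.119) and Abhd15 (0.136) were nearest to Ccl25.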

How the data were processed

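RNA sequencing of 6 libraries was analysed, 3 control and 3 Satb1 cKO, grouped by sample title. The authors deposited raw read counts per gene, 1 table per library, made with STAR 2.7.3a on mm10 and HTSeq 0.12.4, as the submitters' processing notes list them. Which annotation release and strand setting were used is not given in the sources here. Of 55401 genes, 55141 matched GENCODE M21, which gave symbols, positions and exon lengths. Lines that name no gene were left out. The share of reads in no gene was 9.18% to 9.5% in the controls and 7.32% to 7.61% in cKO.

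Counts were fitted with edgeR 4.0.16 in R 4.3.3 (filterByExpr, TMM, quasi-likelihood test), and genes were called at a Benjamini-Hochberg adjusted p under 0.05 over all 13364 tested genes. The filter asked for 0.584 CPM, or 10 reads at median depth, in at least 3 libraries. CPM used TMM-scaled library sizes, and SE is that of the log2 fold change. The pipeline was tested on simulated data. No libraries were identical.

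The named genes were all members, their receptors, other chemokine genes with reads, the 3 nearest tested protein-coding genes on each side, the 3 nearest profiles (log2 CPM with a prior count of 2, centred per gene) and, per list, up to 4 called genes of smallest p and defining cell type genes. Not every gene the rule takes is printed, and Cd4, Fasl, Gzma, Csf2, Klrk1, Klra8, Klre1, Itgam, the C1q genes, the genes nearest in profile to Ccl22 and those that share its spread were named after their values were seen. Mx1 was also named after its values were seen. Gene and marker lists, like the members, were chosen with earlier results of these data known. A gene of the interferon-gamma list is not reported here and was left out of its counts. Alternatives were RLE size factors, library totals, no filter, a mean of at least 1 CPM, DESeq2 1.42.0, a replicate block and leaving out each library.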

Additional observations from a re-analysis of the deposited data

How the results depend on the processing

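In every alternative run, 4 members were called higher. The members called lower numbered 1 in the main analysis, 2 with no filter on low counts (Ccl22 and Ccl25), 0 with DESeq2, and 0 to 1 when each library was left out. With no filter, 26132 genes were fitted and the prior degrees of freedom became infinite, against 7.12 with the filter. Leaving out each library in turn gave 2396 to 2898 genes called higher and 2275 to 2937 called lower. Over the same omissions the log2 fold change of Irf1 ran from -0.18 (without control replicate 1) to 0.171 and was -0.015 without cKO replicate 1, that of Gbp2 ran from -0.16 (without control replicate 1) to 0.471, and that of Ccl27a ran from -0.509 to 0.0034 (without cKO replicate 2), each crossing 0. The cause was not tested. Counts for the gene lists under each alternative were added after seeing the data. With no filter, 10 genes of the interferon-gamma axis were called higher instead of 6, and 15 monocyte and macrophage markers instead of 9, of which DESeq2 called 14. With a mean of at least 1 CPM, 0 receptors were called lower instead of 1.

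The replicate numbers showed no pairing in expression: deviations of same-numbered libraries correlated at 0.0215, -0.0125 and 0.0279. These values cannot show whether same-numbered libraries were handled together. With the replicate block, 4 members were called higher and 1 lower, 2861 and 2702 genes were called over the whole table, and the log2 fold change of Satb1 was -0.68. Xcl1, Cxcl9 and Cxcl2 rest on few control reads, so their folds are imprecise. DESeq2 left 9 of the other named genes with a call lost.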
